A study of Rattus norvegicus with 60 samples.

Results

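Lungs of male Fischer 344 rats that had inhaled multi-walled carbon nanotubes (MWCNT) to a cumulative dose of 45 mg/m3 were compared with lungs of rats that breathed air in the same run. The comparison holds 9 of the 60 libraries of the series, chosen by their labels. These are the 6 MWCNT rats and the 3 air rats, numbered 1, 2 and 4, that carry no outlier label. Air rats 3, 5 and 6 of the same run are labelled as outliers and were left out. All were bought at 3 months of age and kept 3 to a cage. Whole-body exposure to nanotubes or filtered air lasted 6 hours a day on 3 days, and a piece of lung was taken 1 day after it ended. The series holds 4 further doses, 11.25, 22.5, 90 and 180 mg/m3, each with air rats exposed at the same time, so that no air rat serves as control for 2 doses. Dose and run change together, so an effect of dose and an effect of run cannot be told apart between doses. The labels do not describe the nanotubes further, nor how much reached the lung of each rat.

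Carbon nanotubes are stiff fibre-like particles that settle in small airways and alveoli and are cleared slowly. The airway lining is made of multiciliated cells, which sweep mucus upward, and of secretory cells, which make mucus, defence proteins and detoxifying enzymes. Alveolar macrophages take up particles, and epithelial cells and macrophages send out chemokines that draw neutrophils and monocytes. When the lining is injured, basal, club and alveolar type 2 cells divide and some of their daughters mature into new ciliated or secretory cells.

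Total counts were 12150814 to 15771586 per library in the MWCNT rats and 11313397 to 13669995 in the air rats. Lung markers such as surfactant genes took 2.89 to 3.56% of the counts in the 9 libraries, and liver markers took 0.0172 to 0.0237%. Liver markers took 20% of the counts in air rat 5 and 0.399% in air rat 6, and air rat 3 had the fewest counts of the set, 5190834. The first principal component of the 9 libraries carried 27.1% of their variance and placed the 6 MWCNT rats at -18.3 to -6.5 and the 3 air rats at 19.9 to 31.2. The p-values measure the spread between rats, and the counts come without molecular identifiers, so a floor set on counts covers counting error only. Because the tissue is bulk lung, fewer cells of a type and less RNA per cell cannot be told apart.

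Promoters of 6 genes that rose are shown because they come from the mitosis, multiciliated cell formation and CXC chemokine lists and hold short motifs that were counted over all promoters. Each window runs from 250 bases before to 50 bases after the gene start and was taken from RefSeq on the GRCr8 assembly, whose strain differs from Fischer 344. Capitals mark matches to the motifs named for each gene, and other motifs stay in lower case, such as CCAAT in the Cxcl6 window. In Cdk1 (chr20:19265043-19265342, plus strand) and Cdc20 (chr5:137255750-137256049, minus strand) they mark TTTGAA, the core of the cell cycle genes homology region (CHR), and CCAAT or its reverse complement. In Ccno (chr2:46363824-46364123, plus strand) and Mcidas (chr2:46369767-46370066, plus strand) they mark GTTGCC, one arm of the X-box that RFX factors bind, and in Mcidas also the reverse complement of TTTGGCGC, an E2F site. In Cxcl1 (chr14:17479272-17479571, minus strand) and Cxcl6 (chr14:17596368-17596667, minus strand) they mark GGAATTTCC, a site of the NF-kB type. No marked match overlapped another.
Cdk1: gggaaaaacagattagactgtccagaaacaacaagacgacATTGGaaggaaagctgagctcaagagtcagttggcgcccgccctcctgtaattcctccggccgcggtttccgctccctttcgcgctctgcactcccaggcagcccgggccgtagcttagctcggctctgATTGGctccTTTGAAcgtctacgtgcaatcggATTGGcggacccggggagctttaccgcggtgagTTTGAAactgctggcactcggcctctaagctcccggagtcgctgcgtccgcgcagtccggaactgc
Cdc20: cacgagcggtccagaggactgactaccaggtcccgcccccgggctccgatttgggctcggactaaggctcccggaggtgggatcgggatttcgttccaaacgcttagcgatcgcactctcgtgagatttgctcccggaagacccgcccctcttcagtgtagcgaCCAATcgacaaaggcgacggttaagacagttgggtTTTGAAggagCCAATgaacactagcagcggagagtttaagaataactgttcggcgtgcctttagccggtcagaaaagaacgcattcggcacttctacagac
Ccno: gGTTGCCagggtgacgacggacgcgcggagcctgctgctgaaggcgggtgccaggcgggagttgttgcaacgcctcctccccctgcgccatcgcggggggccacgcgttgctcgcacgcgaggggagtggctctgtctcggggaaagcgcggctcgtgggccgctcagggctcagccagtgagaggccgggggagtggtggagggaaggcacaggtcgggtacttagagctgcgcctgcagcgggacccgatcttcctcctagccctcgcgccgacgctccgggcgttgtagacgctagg
Mcidas: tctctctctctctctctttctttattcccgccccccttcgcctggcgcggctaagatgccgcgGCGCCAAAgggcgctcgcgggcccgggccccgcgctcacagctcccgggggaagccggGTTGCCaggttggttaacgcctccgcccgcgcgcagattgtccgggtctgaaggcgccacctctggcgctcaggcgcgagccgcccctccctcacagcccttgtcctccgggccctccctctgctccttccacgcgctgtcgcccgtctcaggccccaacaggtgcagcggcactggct
Cxcl1: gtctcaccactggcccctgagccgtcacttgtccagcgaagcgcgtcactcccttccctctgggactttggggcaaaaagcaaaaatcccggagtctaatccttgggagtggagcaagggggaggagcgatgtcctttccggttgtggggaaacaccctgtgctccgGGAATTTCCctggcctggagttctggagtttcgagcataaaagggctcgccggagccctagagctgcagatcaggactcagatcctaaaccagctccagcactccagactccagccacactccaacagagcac
Cxcl6: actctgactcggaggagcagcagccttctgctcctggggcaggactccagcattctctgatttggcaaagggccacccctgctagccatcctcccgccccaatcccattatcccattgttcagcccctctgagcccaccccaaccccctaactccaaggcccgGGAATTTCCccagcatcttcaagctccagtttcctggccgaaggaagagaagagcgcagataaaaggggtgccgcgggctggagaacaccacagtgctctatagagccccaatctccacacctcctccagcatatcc

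These 5 motifs were counted on both strands in 27457 promoters, using the first window listed for each gene. TTTGAA was found in 17 of the 24 mitosis genes with a window (70.8%), against 18.1% of all promoters. It also stood in 5 of 10 windows of alternatively activated macrophage genes (50%). In T and NK cell markers, with no called gene, it stood in 8 of 22 (36.4%), and in ER stress genes in 0 of 22. CCAAT was found in 20 of the 24 (83.3%), against 37.7% of all. CCAAT was also frequent in 2 lists with no called gene, at 8 of 8 windows of MHC class II genes and 17 of 22 of ER stress genes (77.3%). It stood in 12 of 14 windows of p53 genes (85.7%), of which 2 of 18 tested rose. In cholesterol and fatty acid synthesis genes, of which 6 of 28 tested rose and 1 fell, it stood in 16 of 19 windows (84.2%). DNA replication genes held TTTGAA in 1 of 22 windows (4.55%) and TTTGGCGC in 7 of 22 (31.8%), against 0.521% of all promoters for the second motif. GTTGCC stood in 6 of 11 windows of genes that form multiciliated cells (54.5%) and in 8 of 18 windows of motile cilium genes (44.4%), against 12.2% of all. GGAATTTCC stood in 4 of 14 windows of CXC, CX3C and XC chemokines (28.6%) and in 0 of 14 of CC chemokines, against 0.328% of all. A match describes letters in the window and does not show that a factor binds there.

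Among 15995 genes tested, 531 rose (3.32%) and 334 fell (2.09%) in the MWCNT rats at an adjusted p under 0.05 by edgeR's quasi-likelihood test, 5.41% in either direction. The shares of 3.32% and 2.09% are the background for the counts of each gene list below. The rises were larger than the falls, with a median log2 fold change of 0.77 among genes that rose and -0.26 among genes that fell. Of these, 164 rose and 7 fell by more than 2-fold. The 6 MWCNT rats all lay above the 3 air rats in 499 of the 531 genes and all lay below them in 278 of the 334. Over all genes tested this held for 7.53% and 6.29%, but a call on these same rats favours genes whose groups lie apart. The counts rest on few air rats. Without air rat 4, 1.49% of the genes tested rose and 0.841% fell, without air rat 2 it was 1.93% and 0.686%, without air rat 1 it was 2.35% and 1.07%, and without MWCNT rat 5 it was 2.71% and 1.18%. The sign of the fold change was kept for all 865 genes each time, which says little because the genes were called on these same rats.

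**Figure D1:**
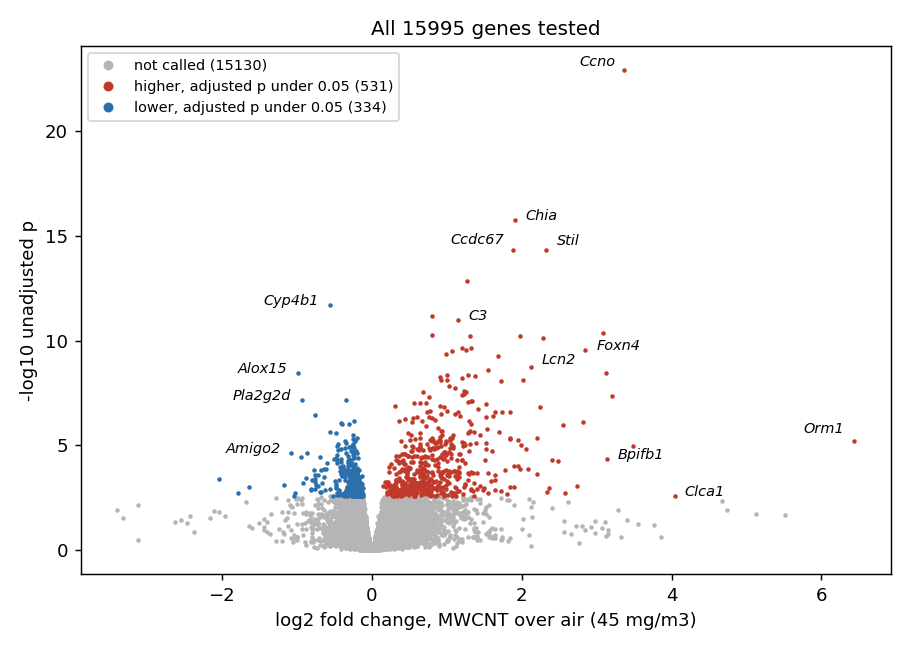
Log2 fold change of MWCNT over air rats at 45 mg/m3 (x axis) against -log10 of the unadjusted p (y axis) for each of the 15995 genes tested. The 531 genes that rose (red) reach further from 0 than the 334 that fell (blue), and Ccno has the smallest p.

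Of 14 tested genes that form multiciliated cells, 8 rose, led by Ccno. Ccno, a cyclin-like protein that drives the amplification of centrioles, measured 14.6 CPM (counts per 1000000, scaled by edgeR's TMM factors) at the lowest, 17.7 at the median and 22.2 at the highest among MWCNT rats, against 1.48, 1.79 and 1.96 CPM in the air rats. It was 10.4-fold higher (log2 fold change 3.37 ± 0.18 SE, adjusted p = 1.9e-19), and the bracketed values of later genes are given in the same way. Foxn4, a transcription factor of the same programme, measured 2.56 to 5.34 CPM with a median of 4.45 in MWCNT rats, against 0.446, 0.595 and 0.665 CPM in air rats (2.85 ± 0.36, adjusted p = 2.5e-07). Every MWCNT rat was above every air rat in both genes. Mcidas, the coactivator at the head of the programme, measured 1.36 to 3.16 CPM with a median of 2.04 in MWCNT rats, against 0.357, 0.369 and 0.595 CPM in air rats (2.24 ± 0.36, adjusted p = 4.1e-05). Ccdc67, named Deup1 in the current reference and a builder of the structures on which new centrioles form, averaged 16.3 ± 2.23 CPM in MWCNT rats (SD, n = 6) and 4.38 ± 0.429 CPM in air rats (n = 3), a 3.7-fold difference (adjusted p = 1.9e-11). Stil, a centriole assembly protein that dividing cells also use, averaged 7.03 ± 1.02 CPM in MWCNT rats and 1.38 ± 0.399 CPM in air rats (2.33 ± 0.21, adjusted p = 1.9e-11). The groups did not overlap for either gene. None of the 14 fell, and their median log2 fold change was 0.73, against -0.00297 over all genes. Leaving out any single rat gave 7 or 8 rises.

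Genes of the finished cilium were listed apart. Of 20 tested motile cilium genes, 11 rose and none fell, with a median log2 fold change of 0.58, and the count was 6 without air rat 4 and between 9 and 12 without any other rat. Dnaaf1, which helps to assemble the dynein arms that move the cilium, measured 11.7 to 18.8 CPM with a median of 15.5 in MWCNT rats, against 6.21, 6.78 and 8.2 CPM in air rats (1.11 ± 0.16, adjusted p = 8.5e-06). Dnai2, a part of the outer dynein arm, averaged 18.3 ± 2.03 CPM in MWCNT rats and 9.65 ± 1.11 CPM in air rats (0.92 ± 0.17, adjusted p = 0.00036). Spag6 (0.82 ± 0.16, adjusted p = 0.00074) and Spag17 (0.88 ± 0.18, adjusted p = 0.0012), parts of the central pair of microtubules, rose too. No MWCNT rat overlapped an air rat in these 4 genes. MWCNT rat 3 was the highest exposed rat in 12 of the 20 genes. The summed level of the whole list overlapped between groups, at 1160 to 1380 CPM in MWCNT rats and 1070 to 1200 CPM in air rats, while that of the formation genes did not, at 280 to 320 CPM against 198 to 203 CPM. The amount of airway in each piece of lung was not recorded, and its part in the airway results was not tested.

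Secretory genes of the airway moved in both directions. Bpifb1, a secreted defence protein of airway mucous cells, averaged 88.3 ± 19.1 CPM in MWCNT rats, the lowest at 65 CPM, against 8.25, 9.1 and 12.5 CPM in air rats, an 8.82-fold difference (3.14 ± 0.69, adjusted p = 0.003). The groups were far apart, and the other air rats of the series spanned 2.38 to 38.1 CPM. Slc26a4, the anion exchanger pendrin, measured 27 to 45 CPM with a median of 31.7 in MWCNT rats, against 7.94, 12.8 and 15.4 CPM in air rats (1.51 ± 0.34, adjusted p = 0.0031). Clca1, a secreted protein of goblet cells, led the 12 largest rises, with 19.9 to 60.9 CPM in MWCNT rats against 1.02, 1.52 and 4.28 CPM in air rats (4.05 ± 1.27, adjusted p = 0.049). Its spread was wide. Leaving out any 1 of the 3 air rats or MWCNT rat 2, 3, 5 or 6 ended its call, with adjusted p between 0.06 and 0.2, and the other air rats ranged from 0.164 to 37.4 CPM. Agr2, which folds mucins (1.35 ± 0.34, adjusted p = 0.0093), and Foxa3, a transcription factor of goblet cells (1.98 ± 0.48, adjusted p = 0.0072), rose as well. Agr2 lost its call without air rat 2 (adjusted p = 0.069), and without air rat 4 Foxa3 (0.094) and Slc26a4 (0.06) lost theirs. The gel-forming mucin Muc5ac stayed below 0.5 CPM in every rat (1.37 ± 0.82, adjusted p = 0.41). In the goblet cell, mucin and ion transport list, 5 of 17 tested members rose and none fell, 3 without air rat 2 and 2 without air rat 4, and the median was 1.35.

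Among markers of club cells, the main secretory and detoxifying cells of small airways, 1 of 14 tested fell and 1 rose. Over all genes 2.09% fell and 3.32% rose. Cyp4b1, a cytochrome P450 enzyme of these cells, measured 406 to 478 CPM with a median of 436 in MWCNT rats, against 639, 643 and 668 CPM in air rats (-0.56 ± 0.06, adjusted p = 5.4e-09). The highest MWCNT rat was well below the lowest air rat. Scgb1a1, which encodes the club cell secretory protein, measured 3890 to 4990 CPM in MWCNT rats, against 5800, 6040 and 6390 CPM in air rats, but it did not pass (-0.48 ± 0.16, adjusted p = 0.056). Hp, the haemoglobin-binding protein haptoglobin, is also in the club cell list and rose (0.71 ± 0.16, adjusted p = 0.0025). The other 12 tested markers did not pass, and 2 markers fell without air rat 2, MWCNT rat 1 or MWCNT rat 3. The summed level of the list was 6920 to 8410 CPM in MWCNT rats and 9060 to 10200 CPM in air rats.

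**Figure D2:**
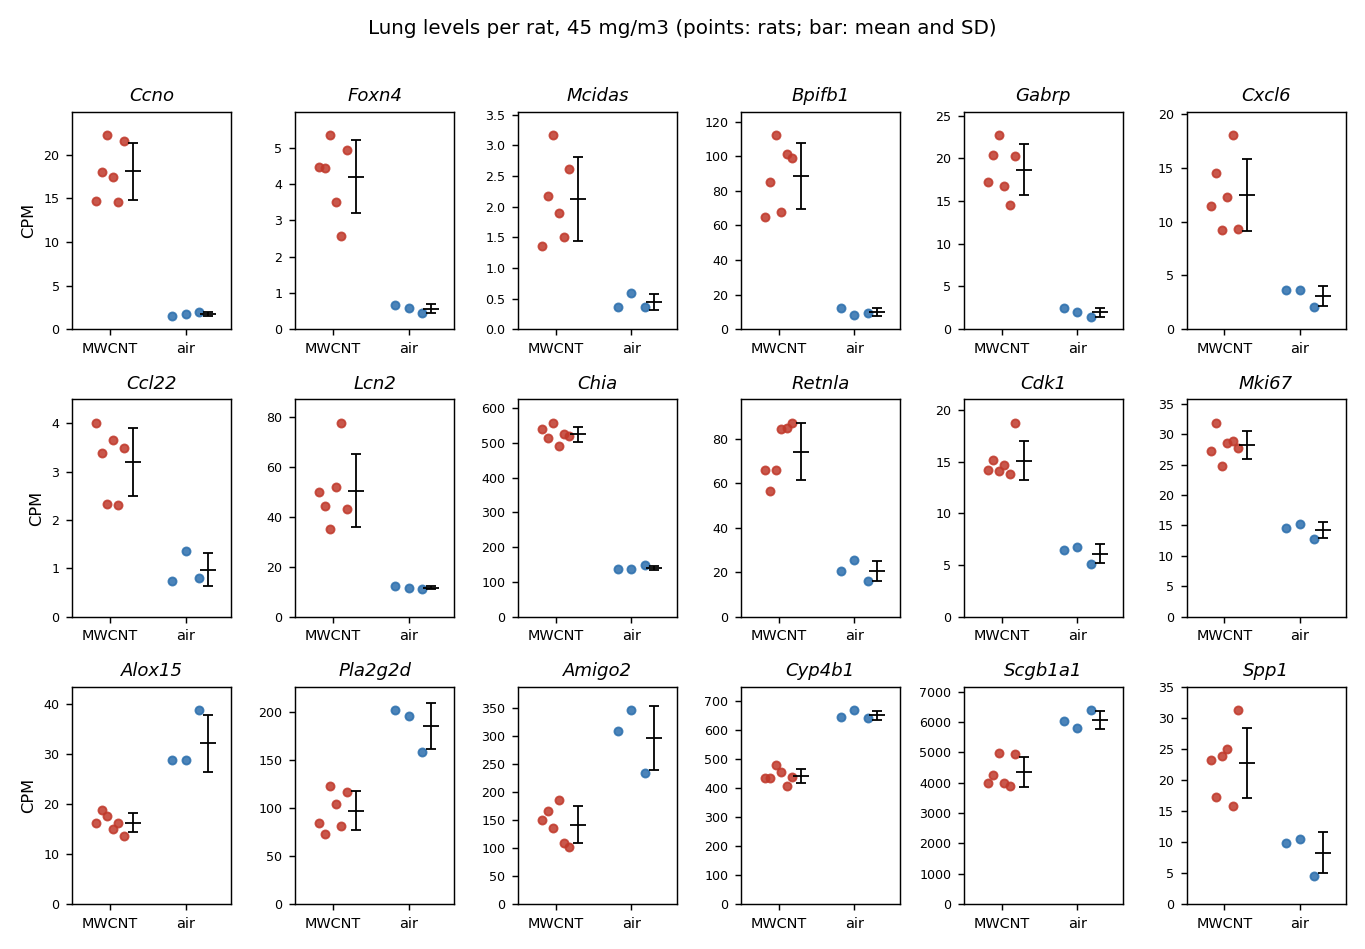
Level in CPM (y axis, from 0) of 18 genes in each MWCNT rat (red, 6 points, left) and each air rat (blue, 3 points, right), with the mean and SD beside the points. In all 18 genes, which were picked for display, the 2 groups do not overlap. Over all genes tested, 7.53% had all MWCNT rats above and 6.29% all below the air rats. Genes that overlap, such as Ccl2, Mmp12 and Hmox1, are not drawn. Scgb1a1 and Spp1 did not pass the test across all genes.

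Most of the listed genes of cell division rose. Cdk1, the kinase that starts mitosis, measured 13.8 to 18.8 CPM with a median of 14.4 in MWCNT rats, against 5.09, 6.5 and 6.72 CPM in air rats, a 2.47-fold difference (1.31 ± 0.16, adjusted p = 7.9e-08). Cdc20, which activates the complex that ends metaphase, measured 12 to 14.7 CPM with a median of 12.3 in MWCNT rats, against 5.17, 5.19 and 5.61 CPM in air rats (1.27 ± 0.13, adjusted p = 4.7e-10). The lowest MWCNT rat was more than 2-fold above the highest air rat in both. Top2a, which untangles DNA before division, averaged 25.3 ± 1.24 CPM in MWCNT rats and 10.9 ± 2.95 CPM in air rats (1.2 ± 0.15, adjusted p = 2.4e-07). Mki67, a nuclear protein of cycling cells, averaged 28.2 ± 2.32 CPM in MWCNT rats and 14.2 ± 1.31 CPM in air rats (0.99 ± 0.13, adjusted p = 3.5e-07). The list of mitosis genes had 23 of 29 tested members that rose and none that fell, 29 of 29 with a positive fold change and a median of 0.99, and leaving out any single rat gave 21 to 25. Their summed level was 452 to 519 CPM in MWCNT rats and 225 to 293 CPM in air rats.

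Of 29 tested DNA replication genes, 16 rose, none fell and 13 did not pass. All 29 had a positive fold change, and the median was 0.44. Without any 1 rat the count was 11 to 16. Rrm2, the subunit of ribonucleotide reductase that limits the supply of DNA precursors, measured 7.52 to 9.13 CPM in MWCNT rats, against 2.86, 3.15 and 4.43 CPM in air rats (1.21 ± 0.17, adjusted p = 3.3e-06). Mcm5 (0.91 ± 0.13, adjusted p = 3e-06), Mcm6 (0.56 ± 0.09, adjusted p = 3e-05) and Mcm3 (0.55 ± 0.1, adjusted p = 0.0001), subunits of the helicase that opens DNA, also rose. The groups were apart in all 4 genes. Of genes that p53 controls, 2 of 18 tested rose and none fell: Aen, an exonuclease of cell death (0.42 ± 0.09, adjusted p = 0.0032), and Mdm2, the regulator that has p53 degraded (0.19 ± 0.05, adjusted p = 0.026). Over all genes 3.32% rose. Mdm2 overlapped between groups and lost its call without air rat 1 (adjusted p = 0.12), air rat 4 (0.26) or MWCNT rat 3 (0.065).

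Of the chemokines that act on neutrophils, Cxcl1, Cxcl2 and Cxcl6 rose, and every MWCNT rat was above every air rat in each of the 3. Cxcl1 measured 32.8 to 80.8 CPM with a median of 52.2 in MWCNT rats, against 14.5, 18 and 19.3 CPM in air rats (1.65 ± 0.27, adjusted p = 6.7e-05). Cxcl6 measured 9.25 to 18 CPM with a median of 11.8, against 2.05, 3.62 and 3.66 CPM in air rats, a 3.97-fold difference (1.99 ± 0.4, adjusted p = 0.001). Cxcl2 measured 4.71 to 10.6 CPM with a median of 7.09, against 1.52, 2.44 and 3.15 CPM in air rats (1.62 ± 0.28, adjusted p = 9.2e-05). MWCNT rat 5 was the highest rat in all 3 genes. Without it the log2 fold changes were 1.51 for Cxcl1, 1.86 for Cxcl6 and 1.48 for Cxcl2, and all 3 stayed called. Cx3cl1, the membrane-bound chemokine fractalkine, rose too (0.47 ± 0.12, adjusted p = 0.0093) and lost its call without air rat 2 (adjusted p = 0.052) or air rat 4 (0.12). Cxcl3, a further neutrophil chemokine and the most abundant member of the list, averaged 1050 CPM in MWCNT rats and 851 CPM in air rats, overlapped between groups and did not pass (0.31 ± 0.12, adjusted p = 0.12). Cxcl1, Cxcl2, Cxcl6 and Cx3cl1 made up the 4 of 15 tested CXC, CX3C and XC chemokines that rose, with none that fell and a median of 0.19.

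Among chemokines of the CC family, 6 of 16 tested rose and none fell, with a median of 0.93, while 3.32% of all genes rose. The count was 1 without air rat 4 and 3 without air rat 1 or 2. Ccl22, which draws cells that carry Ccr4, kept its call without any 1 rat. It measured 2.31 to 4.01 CPM with a median of 3.43 in MWCNT rats, against 0.739, 0.803 and 1.36 CPM in air rats (1.72 ± 0.25, adjusted p = 4e-06). Ccl2, which draws monocytes, measured 6.39 to 15.1 CPM with a median of 12 in MWCNT rats, against 3.3, 4.59 and 6.43 CPM in air rats (1.25 ± 0.29, adjusted p = 0.0043). Its lowest MWCNT rat was just under its highest air rat, and without air rat 4 its adjusted p was 0.074. Ccl9 (1.03 ± 0.26, adjusted p = 0.012) lost its call without air rat 4 (0.14). Ccl20, a ligand of Ccr6, rose (1.55 ± 0.47, adjusted p = 0.04) and lost its call without MWCNT rat 5 (0.097), air rat 1 (0.076), air rat 2 (0.19) or air rat 4 (0.16). Ccl17, the second ligand of Ccr4, was called at 1.02 ± 0.32 (adjusted p = 0.047) and lost its call in 8 of the 9 fits without 1 rat, with an adjusted p of up to 0.22. Ccl7, a relative of Ccl2, did not pass (1.14 ± 0.39, adjusted p = 0.073), though its groups did not overlap.

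Some cytokine and NF-kB genes rose, while 3.32% of all genes tested did. Il1r2, a decoy receptor that binds interleukin 1 without passing on a signal, measured 4.27 to 6.43 CPM in MWCNT rats, against 1.99, 2.32 and 2.72 CPM in air rats (1.14 ± 0.26, adjusted p = 0.0032). Il1rn, the soluble antagonist of the same cytokine, averaged 54.8 ± 3.15 CPM in MWCNT rats and 42.7 ± 6.17 CPM in air rats (0.36 ± 0.11, adjusted p = 0.04) and lost its call without air rat 2 (0.1), air rat 4 (0.35) or MWCNT rat 1, 4, 5 or 6 (0.056 to 0.076). Il1b itself averaged 38.4 ± 2.23 CPM in MWCNT rats and 25.6 ± 2.73 CPM in air rats, with no overlap, and just missed the threshold (0.58 ± 0.18, adjusted p = 0.051). Il6 and Tnf had too few counts to be tested, at most 8 and 32 in any of the 9 libraries. Il1r2 and Il1rn were the 2 of 17 tested cytokine genes that rose, and none fell. Of 20 tested genes of NF-kB feedback and adhesion, 4 rose and none fell, 1 without air rat 4. Sod2, the mitochondrial superoxide dismutase that NF-kB induces, was the clearest of them at 224 to 315 CPM in MWCNT rats, against 129, 152 and 155 CPM in air rats (0.81 ± 0.09, adjusted p = 1.5e-08).

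Of 27 tested acute phase and innate defence genes, 13 rose, none fell and 14 did not pass. All 27 had a positive fold change, and the median was 0.55. Leaving out any single rat gave 9 to 13 rises. Lcn2, which binds bacterial iron carriers, measured 35.2 to 77.6 CPM with a median of 47 in MWCNT rats, against 11.1, 11.5 and 12.1 CPM in air rats, a 4.35-fold difference (2.12 ± 0.28, adjusted p = 1.4e-06). C3, the central complement protein, measured 708 to 1230 CPM with a median of 943 in MWCNT rats, against 373, 443 and 456 CPM in air rats (1.15 ± 0.13, adjusted p = 2e-08). MWCNT rat 5 was again the highest in both, and without it the log2 fold changes were 1.96 for Lcn2 and 1.07 for C3. The chitinase Chia averaged 524 ± 22.6 CPM in MWCNT rats, the lowest at 492 CPM, against 140 ± 6.43 CPM in air rats, with no overlap and a 3.75-fold difference with little spread (1.91 ± 0.15, adjusted p = 1.4e-12). Chi3l1, a chitinase-like protein, averaged 361 ± 47.1 CPM in MWCNT rats and 172 ± 11.6 CPM in air rats (1.07 ± 0.13, adjusted p = 2.7e-07). Orm1, an acute phase plasma protein named after its values were seen, had no count in the 3 air rats and 77 counts over the 6 MWCNT rats. Against a floor of 3 counts over the air group it was at least 11.6-fold higher (adjusted p = 0.00075, with a fitted fold that depends on the prior count).

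Complement genes overlap with that list, and 6 of 24 tested rose and none fell. Besides C3 they included Cfi, the protease that inactivates C3b, at 1.39 ± 0.28 (adjusted p = 0.0009), C1s, a protease of the first component, at 0.61 ± 0.11 (adjusted p = 9.9e-05), and Cfb, a protease of the alternative pathway, at 0.43 ± 0.09 (adjusted p = 0.0021). All 4 had groups that did not overlap. The liver makes many of these proteins. Liver markers summed to 191 to 237 CPM in MWCNT rats and 172 to 200 CPM in air rats, none of 18 tested was called by edgeR, and their part in the rise was not tested. With air rats 3 and 6 added, 7 acute phase genes rose and 5 fell.

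Some markers of immune cells passed, while 3.32% of all genes tested rose and 2.09% fell. Of 13 tested neutrophil markers, 2 rose and none fell: Lcn2 and Il1r2, which are not specific to neutrophils. The fold change was positive in 12 of the 13. In 4 of them all MWCNT rats lay above all air rats, which held for 7.53% of all genes tested. The calprotectin subunit S100a9, a plentiful neutrophil protein, averaged 89 CPM in MWCNT rats and 60.7 CPM in air rats and did not pass (0.55 ± 0.19, adjusted p = 0.074). The summed neutrophil list, which includes Lcn2 and S100a9, was 279 to 368 CPM in MWCNT rats and 202 to 221 CPM in air rats, without overlap. Of 16 tested monocyte and dendritic cell markers 3 rose and none fell: Ccl22, Cd14, the coreceptor for endotoxin (0.41 ± 0.1, adjusted p = 0.0069), and Clec9a, a receptor of dendritic cells (0.44 ± 0.13, adjusted p = 0.032). Cd14 lost its call without air rat 2 (adjusted p = 0.1), and Clec9a without any 1 air rat or without MWCNT rat 2 or 6 (0.055 to 0.14). None of 18 tested macrophage markers, 27 T and NK cell markers, 14 B and plasma cell markers or 10 MHC class II genes was called in either direction by edgeR. With 5.41% of all genes called, no call in a list this short is near that share.

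Macrophage genes linked to alternative activation split. Of 13 tested, 4 rose and 3 fell, with a median of -0.03, while 3.32% of all genes rose and 2.09% fell. Retnla, a secreted protein of alternatively activated macrophages and of epithelium, measured 56.7 to 87.3 CPM with a median of 75.3 in MWCNT rats, against 16.2, 20.4 and 25.3 CPM in air rats (1.85 ± 0.35, adjusted p = 0.00067). Chia, Ccl17 and Ccl22 were the other members that rose, and Alox15, Tgm2 and Il4r were those that fell. Alox15, a lipoxygenase that makes lipid mediators, measured 13.5 to 18.8 CPM with a median of 16.2 in MWCNT rats, against 28.7, 28.7 and 38.7 CPM in air rats (-0.98 ± 0.14, adjusted p = 2.4e-06). The arginase gene Arg1 averaged 20.5 ± 2.99 CPM in MWCNT rats and 20.8 ± 4.46 CPM in air rats (-0.03 ± 0.17, adjusted p = 0.97). Spp1, which encodes osteopontin, measured 15.8 to 31.3 CPM in MWCNT rats, against 4.55, 9.9 and 10.4 CPM in air rats, with no overlap, but did not pass (1.45 ± 0.47, adjusted p = 0.058). Mmp12, the macrophage elastase, overlapped between groups (0.48 ± 0.29, adjusted p = 0.42).

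Interferon response genes had no call and mostly negative values. None of 34 tested passed by edgeR, while 5.41% of all genes were called. Only 3 had a positive fold change, and the median was -0.20, against -0.00297 over all genes. In 8 of the 34 all MWCNT rats lay below all air rats, which held for 6.29% of all genes tested. The summed level of the list overlapped, at 2290 to 2610 CPM in MWCNT rats and 2570 to 2940 CPM in air rats.

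**Figure D3:**
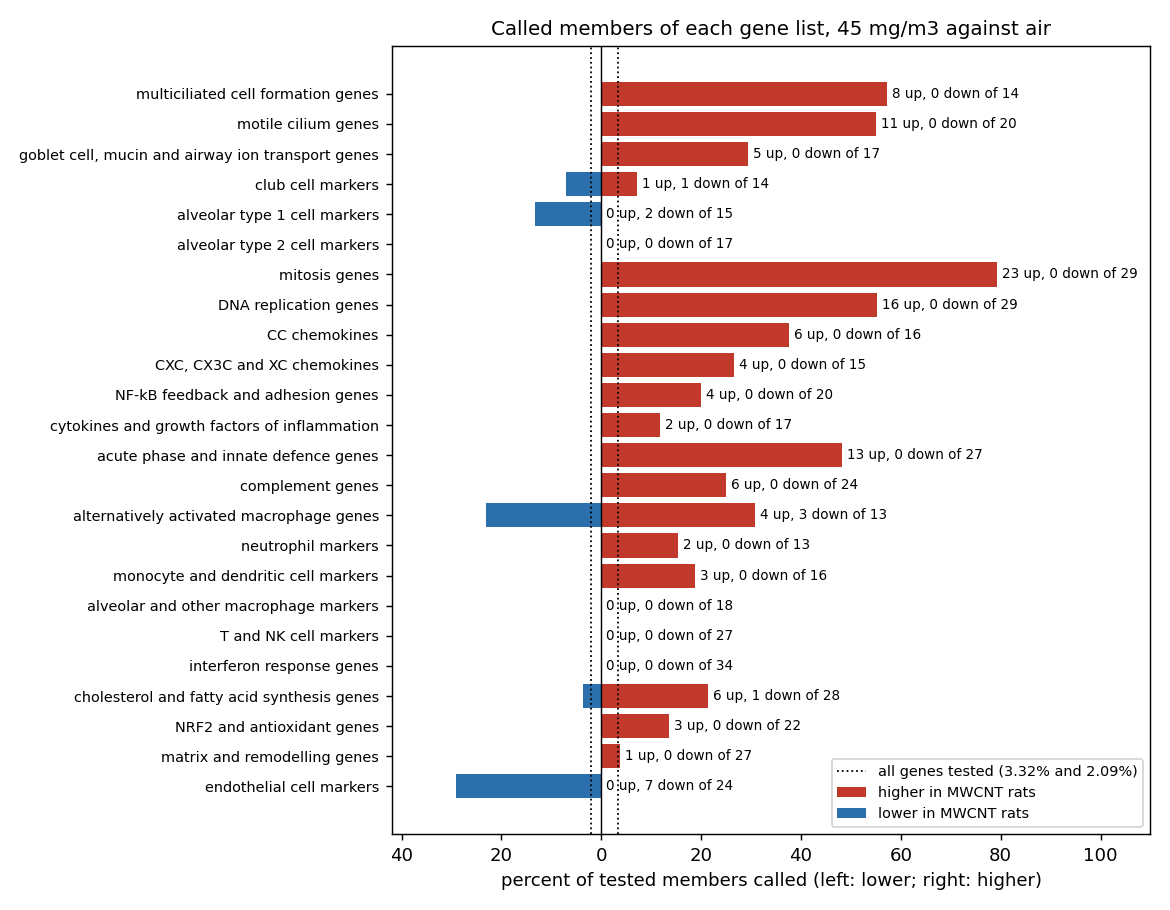
Percent of the tested members of 24 gene lists (rows) called lower (blue, left of 0) or higher (red, right of 0) in MWCNT rats, with the counts beside each bar. Dotted lines mark the share over all genes tested, 2.09% lower and 3.32% higher, and the mitosis list reaches furthest right with 23 of 29.

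Enzymes of cholesterol synthesis rose in part, while 3.32% of all genes rose and 2.09% fell. Of 28 tested genes of cholesterol and fatty acid synthesis, 6 rose and 1 fell, with a median of 0.22, and without air rat 4 the rises were 2. Idi1, an isomerase of the sterol pathway, measured 52.1 to 63.4 CPM in MWCNT rats, against 31.9, 36.7 and 45.2 CPM in air rats (0.64 ± 0.12, adjusted p = 0.00042), and Hsd17b7 rose by 0.56 ± 0.12 (adjusted p = 0.0023). Both kept their calls without any 1 rat. Of 22 tested genes of the NRF2 and antioxidant list, 3 rose and none fell. Slc7a11, the cystine transporter that feeds glutathione synthesis, measured 2.26 to 3.25 CPM in MWCNT rats, against 1.02, 1.25 and 1.26 CPM in air rats (1.18 ± 0.25, adjusted p = 0.002). The haem oxygenase gene Hmox1, a common sign of oxidative stress, overlapped between groups (0.27 ± 0.14, adjusted p = 0.33). Metallothionein Mt2A averaged 4.27 ± 0.919 CPM in MWCNT rats and 2.38 ± 0.296 CPM in air rats and did not pass (0.84 ± 0.3, adjusted p = 0.097). None of 24 tested ER stress genes, 22 lysosome genes, 15 inflammasome and cell death genes or 6 AhR targets was called by edgeR. Over all genes 5.41% were called, so no call in a list this short is near that share.

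Several of the 12 largest rises belong to none of these groups. Gabrp, a subunit of a chloride channel gated by GABA, measured 14.6 to 22.7 CPM with a median of 18.7 in MWCNT rats, against 1.43, 2.04 and 2.51 CPM in air rats, a 9.2-fold difference (3.2 ± 0.49, adjusted p = 1.7e-05). Tmc5, a transmembrane channel-like protein, measured 11.1 to 15.1 CPM in MWCNT rats, against 1.43, 1.53 and 1.7 CPM in air rats (3.12 ± 0.43, adjusted p = 2.3e-06). Noxa1, an activator of an NADPH oxidase, measured 3.5 to 4.81 CPM in MWCNT rats, against 0.765, 0.813 and 0.892 CPM in air rats (2.28 ± 0.28, adjusted p = 8.7e-08). In these genes, named on condition that the groups did not overlap, the MWCNT rats lay at several times the level of any air rat of their run. The protease Prss30 was 8.47-fold higher (3.08 ± 0.36, adjusted p = 7.3e-08). Tnn, a tenascin of the matrix, was low throughout, at 0.978 to 2.09 CPM in MWCNT rats against 0.085, 0.222 and 0.268 CPM in air rats (2.82 ± 0.5, adjusted p = 0.00014). It was the single member called among 27 tested matrix genes, while 5.41% of all genes were called. The collagen gene Col1a1 (-0.10 ± 0.1, adjusted p = 0.7) and the protease inhibitor Timp1 (0.3 ± 0.13, adjusted p = 0.2) overlapped between groups.

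The falls were smaller, and only 7 genes fell by more than 2-fold. Amigo2, a cell adhesion protein, averaged 141 ± 32.7 CPM in MWCNT rats, the highest at 186 CPM, against 233, 309 and 346 CPM in air rats (-1.07 ± 0.23, adjusted p = 0.002). Pla2g2d, a secreted phospholipase, measured 73.1 to 123 CPM with a median of 94.1 in MWCNT rats, against 186 ± 23.6 CPM in air rats (-0.93 ± 0.15, adjusted p = 2.5e-05). Serpinb10, a serine protease inhibitor, measured 17.3 to 26 CPM with a median of 18.6 in MWCNT rats, against 31.6, 32 and 38.2 CPM in air rats (-0.76 ± 0.13, adjusted p = 8.3e-05). The 3 genes showed no overlap and kept their calls without any 1 rat. Bmp2, a growth factor, averaged 5.01 ± 1.18 CPM in MWCNT rats and 9.58 ± 1.26 CPM in air rats (-0.94 ± 0.21, adjusted p = 0.0025). Abcd2, a peroxisomal transporter of very long fatty acids, averaged 17.4 ± 2.59 CPM in MWCNT rats and 26.4 ± 1.6 CPM in air rats (-0.60 ± 0.14, adjusted p = 0.004). The clock repressor Cry1 averaged 17.3 ± 2.69 CPM in MWCNT rats and 28.9 ± 1.3 CPM in air rats (-0.75 ± 0.19, adjusted p = 0.011) and lost its call without air rat 1 (0.058) or air rat 4 (0.05). It was the single member called among 17 tested clock genes, while 5.41% of all genes were called. No clock gene was called without air rat 1 or without air rat 4.

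For Amigo2 the air rats of this run were high for the series, and the part of this in its fall was not tested. The 24 air rats of the other 4 runs spanned 118 to 301 CPM for Amigo2 with a median of 214, and 2 of the 3 air rats here lay above that range. Against those air groups the MWCNT rats were lower in Amigo2 by -0.51 ± 0.16 on the log2 scale (adjusted p = 0.017), in Bmp2 by -0.52 ± 0.14 (adjusted p = 0.0073) and in Cry1 by -0.30 ± 0.13 (adjusted p = 0.11). For Alox15 and Pla2g2d the 3 air rats lay within the range of the others, and against the other air groups the MWCNT rats were lower by -1.03 ± 0.1 (adjusted p = 7e-12) and -0.75 ± 0.1 (adjusted p = 1.6e-07). Ccno was as high against the other air groups, at 3.35 ± 0.09 (adjusted p = 2.9e-33). Over all genes, 3 of 15995 (0.0188%) differed between the air rats of this run and the other air groups by edgeR, and 1112 at an unadjusted p under 0.05.

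Of 24 tested markers of endothelial cells, 7 fell (29.2%, against 2.09% of all genes), none rose and 17 did not pass, with a median of -0.17. In 11 of the 24 all MWCNT rats lay below all air rats, which held for 6.29% of all genes tested. Esam, an adhesion molecule of endothelial junctions, measured 246 to 274 CPM in MWCNT rats, against 294, 299 and 344 CPM in air rats (-0.26 ± 0.07, adjusted p = 0.013), and lost its call without air rat 4 (0.23). The receptor Aplnr (-0.32 ± 0.09, adjusted p = 0.029) and its ligand Apln (-0.27 ± 0.08, adjusted p = 0.037) were called too, and each lost its call without any 1 air rat (adjusted p between 0.067 and 0.17). The count of 7 is not firm: it was 0 without air rat 4, 1 without air rat 1, MWCNT rat 3 or MWCNT rat 6, 2 without air rat 2 or MWCNT rat 5, and 4 without MWCNT rat 4. Alveolar type 1 cell markers had 2 of 15 tested that fell, Cav2 (-0.21 ± 0.06, adjusted p = 0.04) and Gprc5a (-0.23 ± 0.06, adjusted p = 0.025), and neither was called without air rat 2 or MWCNT rat 2. Gprc5a overlapped between groups. None of 17 tested alveolar type 2 cell markers was called by edgeR, while 5.41% of all genes were. The surfactant protein gene Sftpd averaged 1090 ± 115 CPM in MWCNT rats and 956 ± 87.9 CPM in air rats (0.18 ± 0.12, adjusted p = 0.47).

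Markers of tissues that can be cut with a piece of lung were also summed. Cardiac and skeletal muscle markers summed to 79 to 236 CPM in MWCNT rats and 63.6 to 185 CPM in air rats, and red blood cell markers to 2360 to 3650 CPM in MWCNT rats and 3260 to 3910 CPM in air rats. None of the tested members of the muscle, red blood cell, adipose, mesothelial, liver or thymus and lymph node lists was called by edgeR. These lists are short, and 5.41% of all genes were called.

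Set beside its neighbours, the response at 45 mg/m3 shared most of its rises with the 22.5 and higher doses. Among the 531 genes that rose, 396 (74.6%) also rose at 22.5 mg/m3, where 5.18% of all genes did, and these were 47.8% of the 828 that rose there. At 90 mg/m3, 433 rose as well (81.5%, where 6.82% of all genes rose), or 39.7% of the 1091 that rose there. At 180 mg/m3 it was 438 (82.5%, against 12% of all genes), and at 11.25 mg/m3 it was 3 of the 4 genes that rose there. Of the 334 genes that fell, 75 (22.5%) fell at 22.5 mg/m3 (where 6.8% of all genes changed in either direction), 165 (49.4%) at 90 mg/m3 and 239 (71.6%) at 180 mg/m3, where 1.62%, 4.28% and 10.9% of all genes fell. These runs share no rats with the 45 mg/m3 run, but all entered the same estimate of spread.

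The sizes of the effects were compared next. The median log2 fold change of the 531 genes was 0.10 at 11.25, 0.59 at 22.5, 0.77 at 45, 0.71 at 90 and 0.74 at 180 mg/m3, and the genes were chosen on their values at 45 mg/m3. The test of the difference in effect found 0 genes between 45 and 90 mg/m3 by edgeR, with 750 at an unadjusted p under 0.05 (4.69%) and a smallest adjusted p of 0.095. Between 45 and 22.5 mg/m3 it also found 0, with 721 at an unadjusted p under 0.05 (4.51%). DESeq2 called 1 and 0, and limma voom 9 and 1. A test that finds no gene does not show that the doses act alike, since the median SE of such a difference was 0.15 on the log2 scale.

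**Figure D4:**
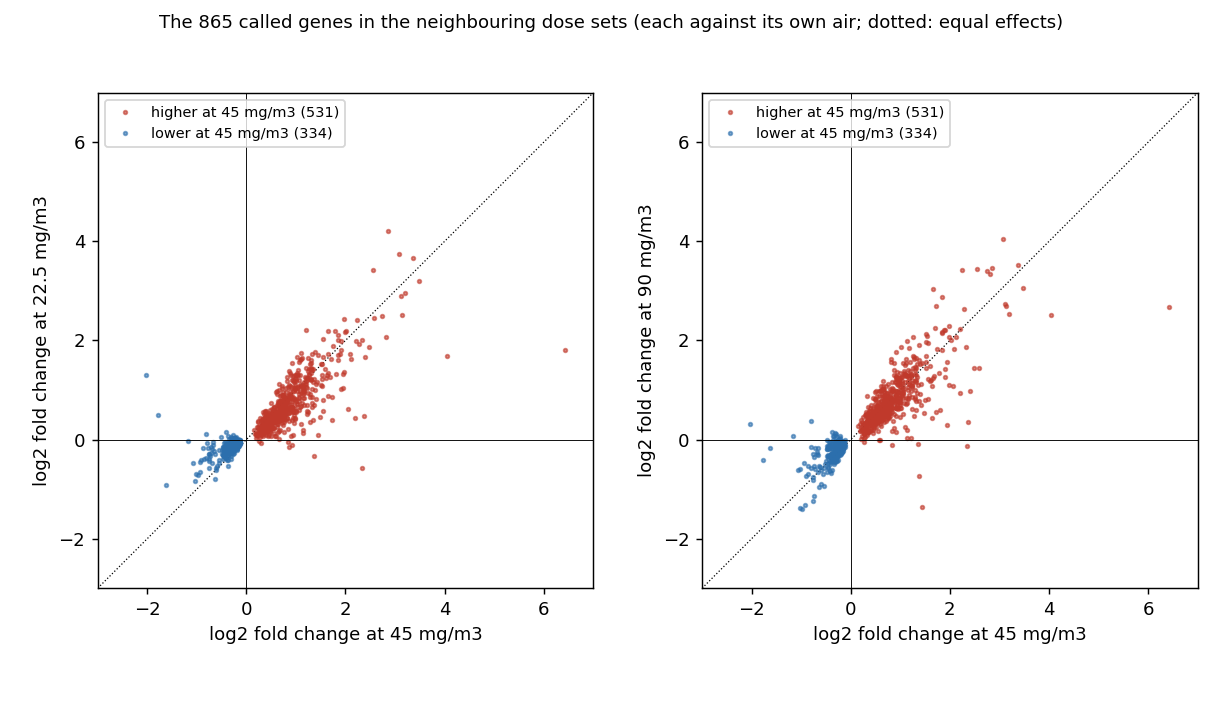
Log2 fold change at 45 mg/m3 (x axis) of the 865 genes called there against their log2 fold change at 22.5 mg/m3 (left, y axis) and 90 mg/m3 (right, y axis), each against its own air rats. Red points rose and blue points fell at 45 mg/m3. Of the 865 genes, 845 had the same sign at 90 mg/m3 (97.7%, against 69.6% of all genes tested). At 22.5 mg/m3 it was 838 (96.9%, against 65.3% of all).

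Single genes took different courses over the doses. Ccno changed little from 22.5 mg/m3 on, with log2 fold changes of 1.52, 3.67, 3.37, 3.53 and 3.17 from 11.25 to 180 mg/m3. Mitosis genes had a median log2 fold change of 0.15 at 11.25, 1.11 at 22.5, 0.99 at 45, 1.10 at 90 and 1.52 at 180 mg/m3. Ccl22 climbed through 0.43, 0.86, 1.72, 2.7 and 3.65, and Spp1 through -0.21, 0.80, 1.45, 3.22 and 4.58. On the falling side Serpinb10 went through -0.08, -0.43, -0.76, -1.24 and -2.05, whereas Amigo2 had its lowest value at 45 mg/m3, with -0.52, -0.48, -1.07, -0.61 and -0.67. For Amigo2 the difference between 45 and 90 mg/m3 had an adjusted p of 1. The SEs of these values are drawn in the plot of effect by dose.

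**Figure D5:**
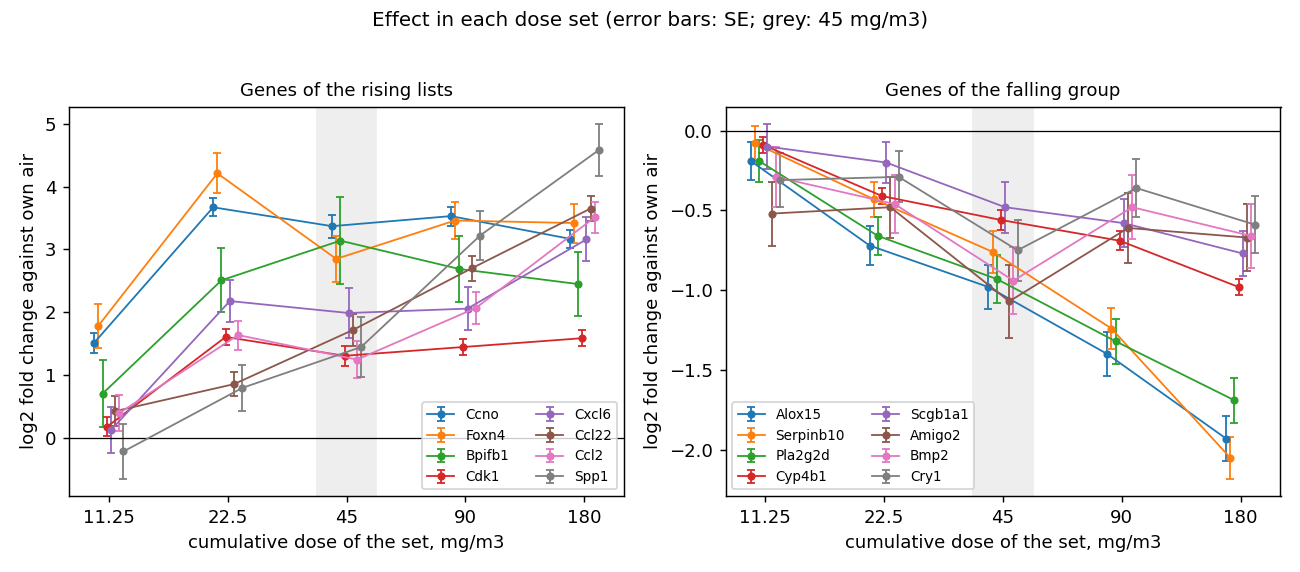
Log2 fold change against the air rats of the same run (y axis) at the 5 cumulative doses in mg/m3 (x axis, equal steps) for 8 genes that were named for rising or for the fixed list (left) and 8 on the falling side (right), with SE as error bars and 45 mg/m3 shaded. Ccno stays between 3.17 and 3.67 from 22.5 mg/m3 on, while Serpinb10 reaches -2.05 at 180 mg/m3.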

How the data were processed

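The authors deposited whole-number read counts per gene for 60 lung libraries from poly(A) RNA, made with a stranded kit and 12 PCR cycles per the labels' protocols. The submitters' processing notes name bcl2fastq 2.19, Trimmomatic 0.35, HISAT2 2.1.0, Cufflinks, SAMtools 1.8 and HTSeq 0.11.2. Which build the reads were aligned to and whether counting used strand is not given in the sources used here. Overlapping and antisense genes are therefore uncertain.

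From the deposited counts, 53 libraries without an outlier label were fitted in 10 groups with edgeR 4.0.16 (R 4.3.3): filterByExpr with a minimum count of 10 kept 15995 of 30045 genes and 99.932% of the counts, followed by TMM scaling, robust quasi-likelihood tests and Benjamini-Hochberg adjustment over all genes. A gene was called at an adjusted p under 0.05. The SE is the log2 fold change divided by the square root of F. List sums used CPM on raw library sizes and included low genes. In the table, 27 symbols had turned into dates. DESeq2 1.42.0 and limma 3.58.1 (voom) served as alternatives, and the scripts were tested on simulated data. Replicate libraries all differed by more than sampling noise, with a smallest chi-square per degree of freedom of 2.9.

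The genes and the 49 gene lists were chosen with earlier results of these data known. Named were the 12 largest rises and 12 largest falls among called genes whose groups did not overlap and whose mean was at least 1 CPM, up to 4 called members per list, and 33 fixed genes. Tgm2, Il4r, Orm1 and Cxcl3 were added after their values were seen.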

Additional observations from a re-analysis of the deposited data

Results flagged for a closer look

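Among the 97 called and 12 other genes followed, there were 4 in which, of the 6 MWCNT rats, 1 rat stood apart from the others, its gap to the nearest rat divided by the range of the group being above the critical value of 0.625. Chance gives about 1 in 20 groups. Ccl20 was 6.25 CPM in MWCNT rat 5 and 3.8 CPM in the next rat, a ratio of 0.878. Tnfaip2, a gene induced by tumour necrosis factor, was 75.5 CPM in the same rat and 59.8 CPM in the next (0.748). Cx3cl1 was 108 CPM in that rat and 81.8 CPM in the next (0.701). Cdk1 was 18.8 CPM in MWCNT rat 6 and 15.2 CPM in the next (0.72). Without MWCNT rat 5, Ccl20 (adjusted p = 0.097) and Tnfaip2 (adjusted p = 0.081) lost their calls in edgeR's quasi-likelihood test.

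Outside the comparison, liver markers took 20% of the counts in the library labelled air rat 5 and 0.399% in air rat 6, against at most 0.0237% in the 9 libraries analysed. Both carry the outlier label.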

How the results depend on the processing

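In the fits without 1 rat, 1.49 to 3.2% of the genes tested rose and 0.686 to 1.88% fell. All 865 called genes kept their sign in each, which says little because they were called on these same rats. With all 60 libraries 1.45% rose (230 genes) and 4.08% fell (647 genes), so that 26.2% of calls were rises, against 61.4%, and without air rat 2 it was 73.8%. That fit includes the library with 20% liver markers. It called 239 of the 865 genes. No filter on low counts gave 0.853% falls (205 genes), limma voom 6% rises and 5.61% falls (959 and 898 genes), and all 5 air groups as control 10% and 7.78% (1601 and 1244 genes). Air rats 3 and 6 had been chosen to be added back for a liver share at lung level, but air rat 6 held 0.399%. The 3 genes that differed between air groups were 1667 with all 60 libraries, 234 with air rats 3 and 6, 9 by DESeq2, 126 by voom and 1 to 4 without 1 rat. The 0 genes between 45 and 90 mg/m3 were 4587, 3, 1, 9 and 0 to 1 in the same order, and the 0 between 45 and 22.5 mg/m3 were 1 by voom and 0 to 0 without 1 rat. Of 97 called genes followed, 52 kept their call without any 1 rat. In 36 no fit ended the call while the sign stayed the same. Those 36 still include Aen, C1s, C3, Cfb, Hp, Hsd17b7 and Idi1, whose sign turned with all 60 libraries.

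With all 60 libraries the log2 fold change turned its sign for Aen (-0.06), Apln (0.1), Aplnr (0), C1s (-1.52), C3 (-3), Cav2 (0.1), Ccl9 (-1.27), Cd14 (-0.43), Cfb (-0.59), Cfi (-4.25), Col13a1 (0.01), Cxcr7 (0.05), Dhcr7 (-2.43), Esam (0.01), Foxa3 (-4.1), Foxf1 (0.01), Gata2 (0.01), Gprc5a (0.03), Hmgcs1 (-1.11), Hp (-5.95), Hsd17b7 (-0.5), Idi1 (-0.01), Postn (0.1), Tfrc (-0.67) and Tie1 (0.11). With air rats 3 and 6, Hp was -0.21. The cause was not tested. No paired analysis was possible because the labels give the 2 groups no shared replicate numbers. With 3 air rats, small changes and genes under 1 CPM are the least certain.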
